A study of Danio rerio with 10 samples.

Results

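The cytosolic HSP70 family of the zebrafish embryo was described here by 8 of the 32057 genes counted in all libraries. They were found by symbol or Ensembl ID from 9 requested entries, of which 8 matched a gene and 1, hsp70.2, matched none by symbol. By role they are 3 hsp70 genes (hsp70.3, ENSDARG00000021924; hsp70l, ENSDARG00000055723; hsp70.1, ENSDARG00000029688), 2 genes that carry the symbol HSPA8 (ENSDARG00000037403 and ENSDARG00000068992), 2 that carry the symbol HSPA4 (ENSDARG00000004754 and ENSDARG00000018989), and HSPH1 (ENSDARG00000019874). Genes with the same symbol are told apart below by ID. The family was selected on the fold changes of its hsp70 genes between 800 and 0 ppb, so its values at 800 ppb are given as a description, without a p-value. Calls of members at 800 ppb, which rest on an adjusted p, are listed further below. They show how the fits differ and are no test of the family.

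HSP70 proteins bind stretches of unfolded or newly made protein and release them in a cycle driven by ATP. J-domain proteins speed up ATP hydrolysis and so lock the client in place, and exchange factors, among them the HSP110-type proteins encoded by HSPA4 and HSPH1 genes, remove ADP so that the client is let go. HSPA8, also called HSC70, is the constitutive form of unstressed cells and also strips the clathrin coat from vesicles, whereas hsp70 genes are switched on by heat shock factor 1 when unfolded protein builds up. In zebrafish embryos hsp70l is also known to be active in the developing lens without stress.

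Whole wild-type embryos were exposed to thallium nitrate (TlNO3) from 6 to 48 hours post fertilisation, at 0 ppb (5 libraries), 200 ppb (3) or 800 ppb (2), and total RNA was sequenced at 12.1 to 48.3 megareads counted per library. The labels do not say how many embryos were pooled or whether replicates came from separate clutches, so the spread between libraries may be technical. Replicate 1 at 200 and at 0 ppb came from a hospital's sequencing core, and a commercial provider made the other 8. The provider's libraries were clustered into 3 batches by the way their 2 deposited sets of counts differ. The number 3 was set in advance and not found by the clustering. Batch 2 and batch 3 each hold 1 library of 200 ppb and 1 of 0 ppb. Batch 4 holds both 800 ppb libraries with replicates 4 and 5 of 0 ppb. The hospital pair is batch 1. The labels name no batch; these are groups read from the files. All 8 matched markers of embryonic tissues were detected in each library, for example krt4 of the epidermis at 10489 to 19322 CPM (reads scaled to the library total) and MYL7 of the heart at 15.3 to 34.5 CPM.

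Both 800 ppb libraries had higher levels of hsp70.3 and hsp70l than any 0 ppb library, and the summed hsp70 genes were 4.58 times as high as at 0 ppb in the fit. The 2 HSPA8 genes and the 2 HSPA4 genes each split into one with a larger difference and one with a smaller difference or none. At 200 ppb the differences were smaller, and none passed the test with site or batch as a term. Levels below are CPM on TMM-scaled library totals; they are not corrected for gene length, so they compare libraries for 1 gene and not genes with each other.

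hsp70.3 was the member with the widest difference in the fits with site and with batch as a term. It measured 122 and 53.3 CPM in the 800 ppb libraries, against 6.52, 23.3, 19.6, 8.44 and 14.5 CPM at 0 ppb. Both exposed libraries lay above all 5 unexposed ones, and replicate 1 of 800 ppb was 2.29 times as high as replicate 2. With site of library construction and dose as terms, the log2 fold change was 2.39 (SE 0.34), a fold of 5.22; with batch in place of site it was 2.93 (SE 0.31). In bulk RNA of whole embryos, more RNA per cell and more cells that express a gene cannot be told apart, and this holds for each member.

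**Figure D1:**
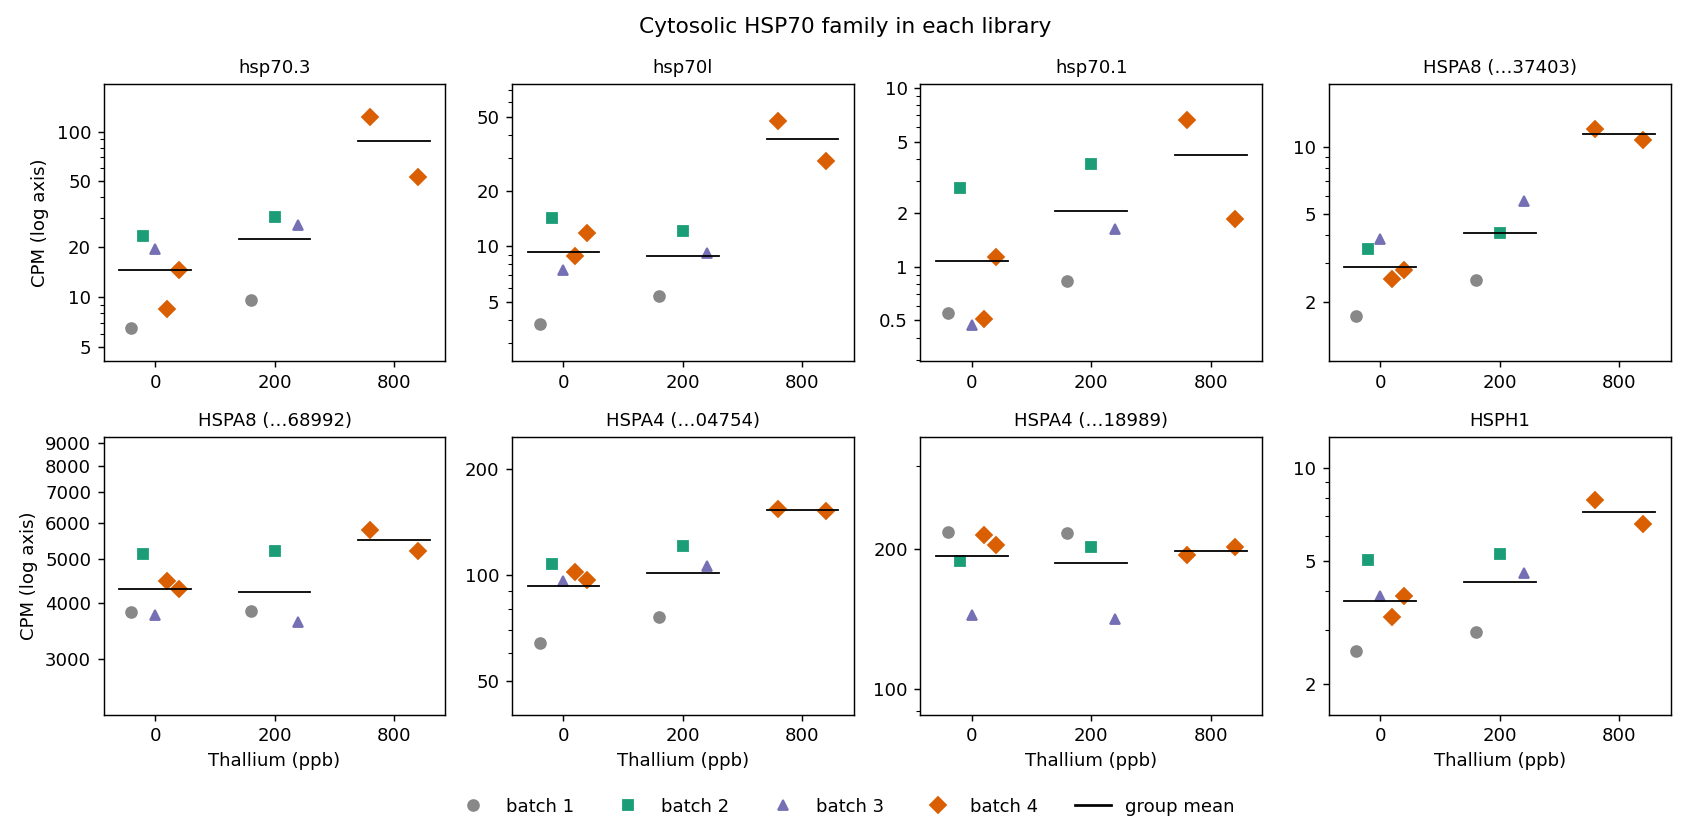
Expression of the 8 members in each of the 10 libraries, in TMM-scaled CPM on a log axis, with each point 1 library, its shape and colour the batch, and a line at the mean of each dose. For hsp70.3 the 800 ppb points lie at 122 and 53.3 CPM, above the highest 0 ppb point at 23.3 CPM, while for the HSPA4 gene ENSDARG00000018989 the 3 doses overlap.

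hsp70l measured 47.1 and 28.9 CPM at 800 ppb, against 3.84, 14.3, 7.49, 8.87 and 11.9 CPM at 0 ppb. Again neither exposed library overlapped the unexposed ones. The log2 fold change was 1.88 (SE 0.26) with the site term and 1.88 (SE 0.23) with the batch term. Because this gene is active in the lens, lens markers were set beside it: the summed level of 21 lens genes was 3059 and 4095 CPM at 800 ppb, against 1293 to 5423 CPM at 0 ppb, with none of the 21 at 0 in any library. At 800 ppb 7 of the 21 lay above 0 on the log2 scale with the site term (median -0.29) and 16 with the batch term (median 0.16). The part of the lens in the hsp70l values was not tested.

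hsp70.1 was the least abundant of the hsp70 genes by reads, and the one whose reads differed most between the 2 deposited sets of counts. It had 94 and 22 reads at 800 ppb, against 30, 44, 7, 6 and 15 reads at 0 ppb, with 95% Poisson intervals of 2.20 to 13.1 for the count of 6 and 2.81 to 14.4 for the count of 7 (counting error only). In CPM these are 6.58 and 1.86 at 800 ppb, against 0.548, 2.74, 0.472, 0.507 and 1.13 at 0 ppb. Replicate 2 of 800 ppb thus lay below replicate 2 of 0 ppb, and the groups overlapped. The log2 fold change was 1.72 (SE 0.66) with the site term and 2.36 (SE 0.59) with the batch term.

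A second set of counts, recovered from the deposited series table, gave hsp70.1 145 and 51 reads at 800 ppb, against 30, 42, 15, 22 and 17 reads at 0 ppb. There the groups did not overlap in CPM on plain library totals (without TMM), at 8.26 and 3.54 against at most 2.27 at 0 ppb. The log2 fold change was 2.02 (SE 0.46). Reads of hsp70.1 in the second set were 3.67 times those of the first in replicate 4 of 0 ppb and 2.14 times in replicate 3, whereas library totals differed by 1.12 to 1.19 times. In the RefSeq annotation GRCz12tu, used here for gene order alone, hsp70.1, hsp70.2 and hsp70.3 lie side by side, between foxd7 and atp2a1, and hsp70l lies elsewhere, between ciao1 and tmem127. Near-identical copies can share or lose reads, so the level of each single hsp70 gene is uncertain. The sum of the 3 was therefore used beside them. What made the 2 sets of counts differ for hsp70.1 was not tested.

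The summed hsp70 genes measured 176 and 84.1 CPM at 800 ppb, against 10.9, 40.4, 27.5, 17.8 and 27.5 CPM at 0 ppb, or 130 ± 64.9 CPM at 800 ppb (SD, n = 2) and 24.8 ± 11.2 CPM at 0 ppb (SD, n = 5). In reads these were 2511 and 997 at 800 ppb, against 211 to 649 at 0 ppb. The log2 fold change was 2.19 (SE 0.29) with the site term and 2.52 (SE 0.27) with the batch term. The exposed libraries lay far above the unexposed ones but also far from each other.

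The make-up of the sum did not separate the doses. hsp70.3 gave 69.5% and 63.4% of the summed reads at 800 ppb and 47.4% to 71.1% at 0 ppb. hsp70l gave 26.8% and 34.4% at 800 ppb and 27.2% to 49.8% at 0 ppb, and hsp70.1 gave 3.74% and 2.21%, against 1.72% to 6.78%. Without hsp70.3 the sum of the other 2 genes had a log2 fold change of 1.87 (SE 0.29). At 800 ppb hsp70l gave 673 of its 767 reads in replicate 1 and 343 of 365 in replicate 2. The family was selected on the fold changes of its hsp70 genes, hsp70l included, so this is no independent check.

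**Figure D2:**
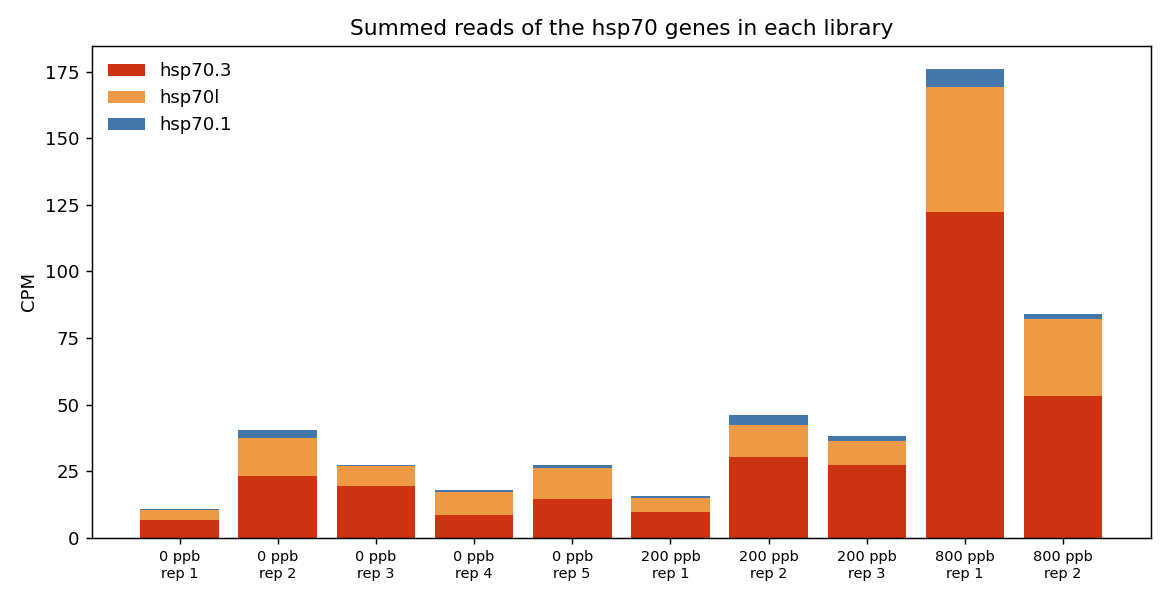
Summed CPM of the 3 hsp70 genes, 1 bar per library from 0 to 800 ppb, stacked by gene (hsp70.3, hsp70l and hsp70.1 from the bottom up). The 800 ppb bars, at 176 and 84.1 CPM, are both above the highest 0 ppb bar at 40.4 CPM, and the 200 ppb bars, at 15.9, 46.3 and 38.1 CPM, overlap those at 0 ppb.

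The 2 HSPA8 genes differed in size of response and in abundance. ENSDARG00000037403 measured 12.0 and 10.7 CPM at 800 ppb, against 1.74, 3.48, 3.84, 2.53 and 2.79 CPM at 0 ppb. Its exposed libraries were close to each other and both above all unexposed ones, on 171 and 127 reads at 800 ppb against 30 to 95 reads at 0 ppb. The log2 fold change was 1.83 (SE 0.23) with the site term and 2.09 (SE 0.24) with the batch term, which in size is near hsp70l.

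ENSDARG00000068992 took most of the reads of the HSPA8 pair. It measured 5800 and 5208 CPM at 800 ppb, against 3810, 5125, 3756, 4475 and 4280 CPM at 0 ppb. The exposed libraries lay just above the highest unexposed one, and the log2 fold change was 0.32 (SE 0.16) with the site term and 0.33 (SE 0.06) with the batch term. The reads of ENSDARG00000037403 were 0.00207 and 0.00206 times those of ENSDARG00000068992 at 800 ppb, against 0.000456 to 0.00102 times at 0 ppb, so this ratio also kept the groups apart.

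Among the HSP110-type exchange factors, the HSPA4 gene ENSDARG00000004754 measured 154 and 152 CPM at 800 ppb, against 64.3, 107, 96.2, 102 and 96.8 CPM at 0 ppb. The other HSPA4 gene, ENSDARG00000018989, measured 194 and 202 CPM at 800 ppb, against 217, 188, 144, 214 and 203 CPM at 0 ppb. The first kept the groups apart and the second did not. Their log2 fold changes were 0.61 (SE 0.11) for ENSDARG00000004754 and 0.09 (SE 0.18) for ENSDARG00000018989 with the site term; with the batch term they were 0.62 (SE 0.08) and -0.07 (SE 0.07).

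Within a library, the reads of ENSDARG00000004754 were 0.795 and 0.753 times those of ENSDARG00000018989 at 800 ppb, against 0.297, 0.570, 0.668, 0.477 and 0.477 times at 0 ppb. This ratio does not depend on library scaling, and both 800 ppb values were above all 0 ppb values. At 200 ppb it was 0.354, 0.598 and 0.751, each above the 0 ppb library of the same batch. Which of the 2 genes is hspa4a and which hspa4b is not given by the name table.

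HSPH1, the third HSP110-type gene, measured 7.85 and 6.58 CPM at 800 ppb, against 2.56, 5.04, 3.84, 3.29 and 3.85 CPM at 0 ppb. The groups did not overlap, on 112 and 78 reads at 800 ppb and 39 to 140 reads at 0 ppb, and the log2 fold change was 0.83 (SE 0.22) with the site term and 1.01 (SE 0.24) with the batch term. The 3 exchange factors together measured 356 and 360 CPM at 800 ppb, against 244 to 319 CPM at 0 ppb, a log2 fold change of 0.30 (SE 0.14).

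**Figure D3:**
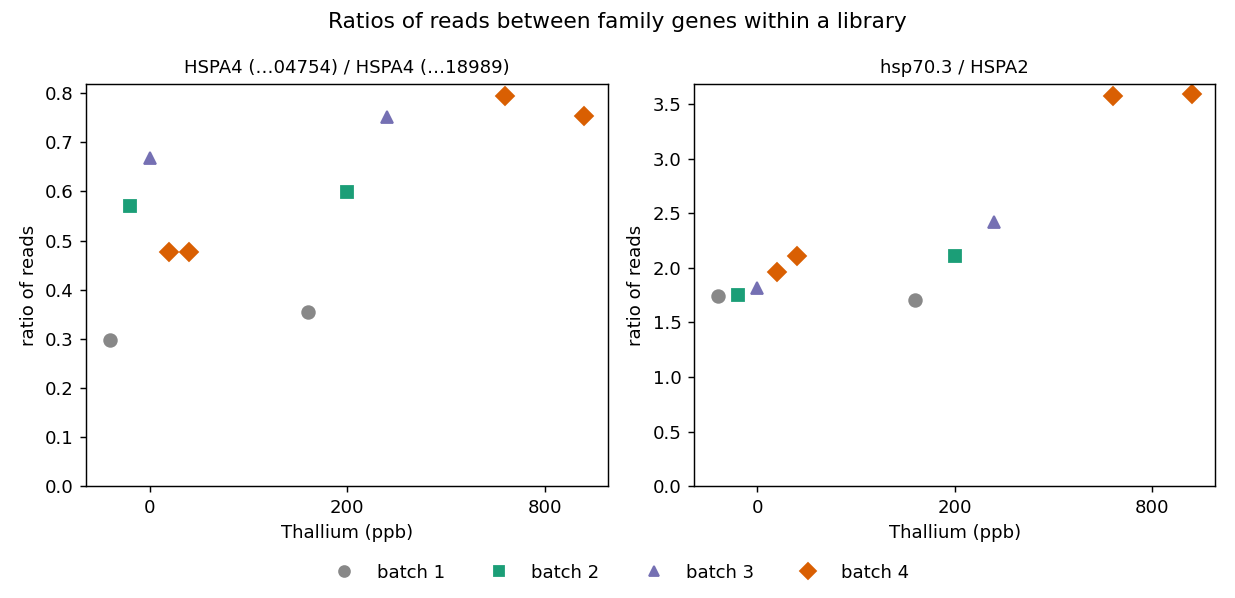
Ratios of reads between pairs of genes in each library, by dose, on axes that start at 0; a ratio within a library is free of library scaling. HSPA4 gene ENSDARG00000004754 over ENSDARG00000018989 lies at 0.795 and 0.753 at 800 ppb and at most 0.668 at 0 ppb, and hsp70.3 over HSPA2 lies at 3.57 and 3.59 at 800 ppb and at most 2.11 at 0 ppb.

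In all, 6 of the 8 members were higher in both 800 ppb libraries than in every 0 ppb library, where 4.86% of the 20867 tested genes were; hsp70.1 and ENSDARG00000018989 were the exceptions. A gene was called when its adjusted p (edgeR quasi-likelihood test, Benjamini-Hochberg over all tested genes) was under 0.05. By that rule 3 members, hsp70.3, hsp70l and HSPA8 ENSDARG00000037403, were called higher at 800 ppb with the site term, among 0.0383% of all tested genes. With the batch term 5 were, ENSDARG00000004754 and ENSDARG00000068992 in addition, among 0.235% of all tested genes. Since the family was chosen with this contrast in view, nothing is read from these counts. The median log2 fold change was 1.28 over the 8 members and -0.01 over all tested genes.

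The site-term calls at 800 ppb changed with single libraries. The site-term fit (edgeR) called 0 of the 8 members without replicate 1, 3, 4 or 5 of 0 ppb. It also called 0 without any 1 of the 200 ppb libraries. In each of these fits 0 or 1 genes were called in all. Without replicate 2 of 0 ppb it called 3 members, among 9 genes called of 20796 tested. The fold change of the summed genes stayed positive with any 1 of the 10 libraries left out, between 1.56 and 2.63 on the log2 scale. In fits with the batch term chosen after seeing the data, 4 members were called without replicate 4 of 0 ppb. They were among 56 genes called of 20812 tested. Without replicate 5 of 0 ppb 4 members were called, among 52 genes of 20820 tested. Leaving out replicate 1 or 2 of 800 ppb keeps 1 library at that dose. The log2 fold change of the summed genes was then 1.88 and 2.95. In batch 4 alone (2 libraries against 2), 4 members were called, among 0.104% of genes. DESeq2 called 4 members (0.17% of genes), limma-voom 1 (0.00958%) and limma on the deposited log2 values 1 (0.0264%).

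**Figure D4:**
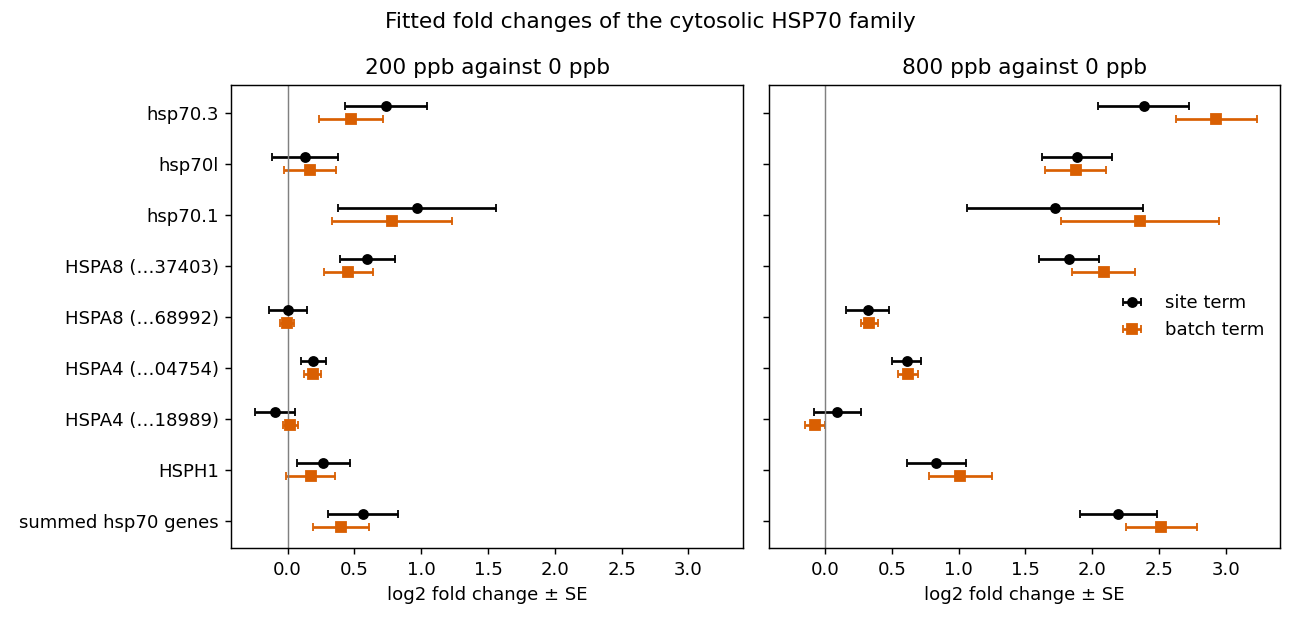
Log2 fold changes of the 8 members and of the summed hsp70 genes against 0 ppb, at 800 ppb and at 200 ppb, from the fits with site and with batch as a term. Bars are the SE derived from the F statistic. At 800 ppb the hsp70 genes and HSPA8 ENSDARG00000037403 lie between 1.72 and 2.93, and HSPA4 ENSDARG00000018989 lies at 0.09 and -0.07.

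Set against 0 ppb libraries of its own batch, hsp70.3 was 10.7 and 4.65 times as high in the 800 ppb libraries. The summed hsp70 genes were 7.77 and 3.71 times as high, HSPA8 ENSDARG00000037403 4.50 and 4.02 times, HSPH1 2.20 and 1.84 times, and HSPA4 ENSDARG00000004754 1.55 and 1.53 times. HSPA4 ENSDARG00000018989 was at 0.93 and 0.97 times. Both 800 ppb libraries lay above the 0 ppb libraries of their batch for 7 of the 8 members, where 16.5% of all tested genes did.

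At 200 ppb hsp70.3 measured 9.64, 30.5 and 27.3 CPM, against 6.52, 23.3, 19.6, 8.44 and 14.5 CPM at 0 ppb. These groups overlapped, and the library of batch 1 was the lowest of each dose. Set against the 0 ppb library of the same batch, hsp70.3 was 1.48, 1.31 and 1.40 times as high in the 200 ppb libraries of batches 1, 2 and 3. The log2 fold change was 0.74 (SE 0.31, edgeR adjusted p = 1.0) with the site term and 0.48 (SE 0.24) with the batch term.

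Replicate numbers 1 to 3 were taken to pair the 200 and 0 ppb libraries, which the labels do not state. These pairs are also batches 1 to 3, so pairing and a shared batch cannot be told apart. A block for the replicate number narrowed the error of hsp70.3 without raising its fold. With the 200 and 0 ppb libraries alone the log2 fold change was 0.47 (SE 0.09, edgeR adjusted p = 0.0599), and no member was called, among 0.00989% of genes. With all 10 libraries and the site term it was 0.47 (SE 0.08, edgeR adjusted p = 0.0115), and hsp70.3 was the 1 member called higher, among 0.024% of genes. That fit also put the 800 ppb libraries in the blocks, although their numbers pair no libraries. At 800 ppb it called 6590 genes and gave hsp70.1 a log2 fold change of -0.39. Both block fits had only 2 residual degrees of freedom. They differ in the libraries, the site term and the genes tested, and which of these moves the call was not tested. The 0 ppb libraries are the same ones that the 800 ppb comparison uses.

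hsp70.1 lay further from 0 ppb than hsp70.3 at 200 ppb, with a wider error: it was 1.52, 1.36 and 3.42 times its own batch's 0 ppb library on 30, 60 and 25 reads, with a log2 fold change of 0.97 (SE 0.59, edgeR adjusted p = 1.0) with the site term and 0.78 (SE 0.45) with the batch term. HSPA8 ENSDARG00000037403 measured 2.53, 4.10 and 5.68 CPM at 200 ppb and was 1.46, 1.18 and 1.48 times its own batch's 0 ppb library, with a log2 fold change of 0.60 (SE 0.21, edgeR adjusted p = 1.0). HSPA4 ENSDARG00000004754 measured 76.3, 121 and 106 CPM and was 1.19, 1.13 and 1.1 times its own batch's 0 ppb library (log2 fold change 0.19, SE 0.10). HSPH1 was 1.15, 1.05 and 1.19 times. hsp70l, at 5.39, 12.0 and 9.17 CPM, went both ways, at 1.40, 0.84 and 1.22 times.

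The abundant HSPA8 gene ENSDARG00000068992 differed least at 200 ppb. It measured 3842, 5201 and 3628 CPM at 200 ppb and was 1.01, 1.01 and 0.97 times its own batch's 0 ppb library. Its log2 fold change of 0.00 had an SE of 0.14 with the site term and was -0.01 (SE 0.05) with the batch term. The HSPA4 gene ENSDARG00000018989 was likewise at 0.99, 1.07 and 0.98 times.

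No member was called at 200 ppb with the site or the batch term (edgeR), and 0.0% of all genes were. Of 20867 tested genes, 120 had an unadjusted edgeR p under 0.05 with site as a term and 230 with batch as a term. Both numbers are well below a share of 0.05 of the tested genes, so these fits seldom gave a small p. The lack of calls therefore does not show that no gene differed. DESeq2, limma-voom and limma on the deposited log2 values also called 0. No member had every 200 ppb library above every 0 ppb library, where 0.268% of tested genes did. Each 200 ppb library lay above the 0 ppb library of its batch for 5 of the 8 members, hsp70.3, hsp70.1, HSPA8 ENSDARG00000037403, HSPA4 ENSDARG00000004754 and HSPH1, where 11.6% of tested genes did.

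**Figure D5:**
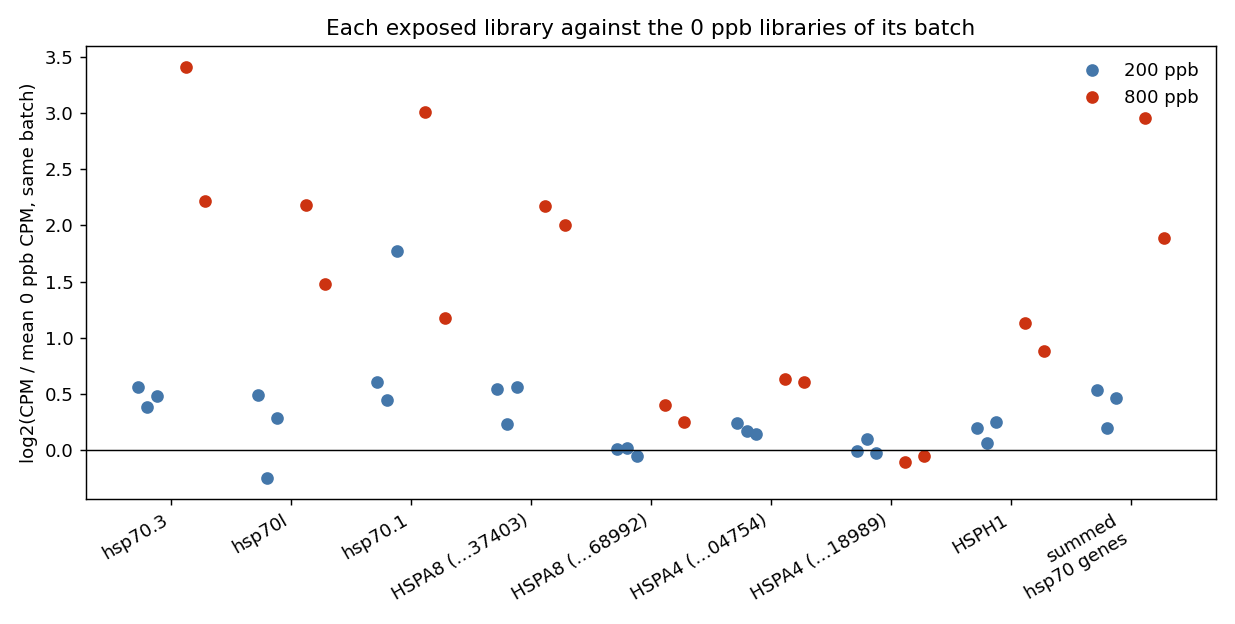
Log2 of the CPM of each exposed library over the mean CPM of the 0 ppb libraries of its own batch, for the 8 members and the summed hsp70 genes; each point is 1 library and the line at 0 marks no difference. hsp70.3 has ratios of 10.7 and 4.65 in the 800 ppb libraries and 1.48, 1.31 and 1.40 in the 200 ppb libraries, and HSPA4 ENSDARG00000018989 lies near 0 in all 5.

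The hsp70 genes also varied widely among unexposed embryos. The highest of the 5 libraries at 0 ppb was 3.58 times the lowest for hsp70.3, 3.73 times for hsp70l and 5.80 times for hsp70.1, against a median of 1.85 times over 18795 genes with a mean of at least 1 CPM. Of those genes, 12.1% spread wider than hsp70.3, 11.0% wider than hsp70l and 4.64% wider than hsp70.1. In checks chosen after seeing the data, without the hospital's library the ratio was 2.76 times for hsp70.3, 1.91 times for hsp70l and 5.80 times for hsp70.1, against a median of 1.55 times. In the same checks, the recovered reads of all 5 libraries gave 2.89, 3.04 and 3.64 times for these genes, against a median of 1.77 times. The recovered values were scaled to plain library totals without TMM. They differ from the first ratios in scaling as well as in counts, and the part of each was not tested. HSPA8 ENSDARG00000068992, at 1.36 times, was narrower than 85.8% of genes. In the hospital's libraries the summed hsp70 genes were lowest, at 15.9 CPM for 200 ppb and 10.9 CPM for 0 ppb, and so were the lens genes, at 1264 and 1293 CPM, and 13 fast muscle genes, at 26638 and 26188 CPM, where the provider's libraries held 45394 to 59503 CPM of fast muscle. The part of these tissues in the spread of the hsp70 genes was not tested.

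Of the other cytosolic HSP70 genes in zebrafish, ENSDARG00000092362 carries the symbol HSPA2, the name of an HSP70 known from mammalian germ cells. Whether the zebrafish gene is its counterpart was not tested. HSPA2 measured 34.2 and 14.8 CPM at 800 ppb, against 3.74, 13.3, 10.8, 4.31 and 6.87 CPM at 0 ppb. Its order of libraries was near that of hsp70.3, and the log2 fold change was 1.47 (SE 0.38) with the site term and 2.13 (SE 0.32) with the batch term. Reads of hsp70.3 were 3.57 and 3.59 times those of HSPA2 at 800 ppb, against 1.74, 1.75, 1.81, 1.96 and 2.11 times at 0 ppb. These 2 doses did not overlap, but the 200 ppb values, at 1.70, 2.11 and 2.42 times, overlapped those at 0 ppb. Reads of hsp70.3 over those of hsp70l overlapped, at 2.59 and 1.84 times at 800 ppb and 0.952 to 2.61 times at 0 ppb. hspa1b (ENSDARG00000056210) measured 3.15 and 3.71 CPM at 800 ppb and 1.28 to 3.98 CPM at 0 ppb, so its groups overlapped (log2 fold change 0.13, SE 0.38). In a check chosen after seeing the data, HSPA2 and hspa1b were added to the summed hsp70 genes. The log2 fold change of the sum was then 1.97 (SE 0.29) with the site term, against 2.19 without them.

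The partners of HSP70 were also read at 800 ppb. Of 21 co-chaperones and exchange factors 0 rose and 0 fell by the call with the site term, and 1 rose with the batch term, dnajb1b, the J-domain partner of stress-induced HSP70. It measured 29.3 ± 0.22 CPM at 800 ppb (SD, n = 2) and 15 ± 3.3 CPM at 0 ppb (SD, n = 5), a log2 fold change of 0.84 (SE 0.18) with the site term and 1.04 (SE 0.13) with the batch term. STIP1, which links HSP70 to HSP90, had a log2 fold change of 0.41 (SE 0.14), bag6 0.21 (SE 0.11) and DNAJB5, a J-domain protein, -0.52 (SE 0.21). The median over the 21 was 0.10, against -0.01 over all tested genes.

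Among 10 relatives of organelles and atypical HSP70, HSPA2 included, 0 rose or fell with the site term and HSPA2 alone rose with the batch term. HSPA9, the mitochondrial HSP70, had a log2 fold change of 0.33 (SE 0.18), HSPA4L, another HSP110-type gene, 0.22 (SE 0.13), and HSPA12B, a divergent member, -0.37 (SE 0.23). The median of the 10 was -0.00 with site as a term and 0.11 with batch as a term. HSPA5, the HSP70 of the endoplasmic reticulum, differed by -0.07 (SE 0.15).

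None of the 5 tested heat shock factors and their binding proteins rose or fell, with either term. hsf1, the main activator of hsp70 genes, had a log2 fold change of 0.28 (SE 0.21), HSF2 0.22 (SE 0.34), and the binding proteins HSBP1 and hsbp1b, which restrain heat shock factor 1, -0.37 (SE 0.22) and -0.25 (SE 0.18). Of 9 genes of the HSP90 system 0 rose with site as a term, whereas 1 did with batch as a term, HSP90AB1, the constitutive HSP90, at 0.43 (SE 0.12) with the site term and 0.36 (SE 0.06) with the batch term. hsp90aa1.1, the HSP90 of developing muscle in zebrafish, had 0.56 (SE 0.17), and the HSP90 co-chaperones FKBP4 and PTGES3 0.30 (SE 0.12) and 0.20 (SE 0.13).

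That list of 9 left out HSP90AA1 (ENSDARG00000024746), an HSP90 gene that the entry hsp90aa1.2 did not match and that is named here after its values were seen. It measured 406 and 312 CPM at 800 ppb, against 58.1, 91.0, 125, 85.0 and 94.2 CPM at 0 ppb, so both exposed libraries were far above all unexposed ones. Its log2 fold change was 1.86 (SE 0.18) with the site term and 2.0 (SE 0.11) with the batch term, and it was called higher in both fits. The site-term call was lost without replicate 4 or 5 of 0 ppb or replicate 1 of 800 ppb. At 200 ppb HSP90AA1 measured 81.4, 119 and 168 CPM, each above the 0 ppb library of its batch.

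Of 9 tested small heat shock proteins none rose or fell, with either term, and the median log2 fold change was -0.06. HSPB1 had 0.27 (SE 0.13), hspb9 -0.98 (SE 0.36), HSPB3 -0.81 (SE 0.40) and HSPB2 -0.28 (SE 0.21). Of 4 other heat shock chaperones, SERPINH1 ENSDARG00000019949, a collagen chaperone of the endoplasmic reticulum, was the 1 that rose with the batch term, at 0.80 (SE 0.08), and had 0.61 (SE 0.22) with the site term. The mitochondrial chaperonins HSPD1 and HSPE1 had 0.35 (SE 0.16) and 0.13 (SE 0.18). The other SERPINH1 gene, ENSDARG00000075954, was called with neither term. The median over the 4 was 0.24 with the site term. At 200 ppb 0 genes of these lists rose or fell with the site or the batch term, by the counts over all genes given above.

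Over the 10 libraries, log2 CPM was compared with the summed hsp70 genes for 18795 genes. Genes without a symbol, with a colon in it, or with one that starts with LOC, zgc, wu or si were then left out. Whether any of those lay closer is not given here. Among the rest, hsp70.3 (Pearson r = 0.991) and hsp70l (r = 0.960) are part of the sum. The closest beside them were HSPH1 (r = 0.987), HSPA2 (r = 0.956), LONP1 (r = 0.954) and HSPA8 ENSDARG00000037403 (r = 0.948). These are descriptions: the points share doses, batches and library scaling, and the 800 ppb libraries lie far from the rest. The next ones in order were HSPA4 ENSDARG00000004754 (r = 0.936) and HSP90AA1 (r = 0.933). LONP1, a protease of the mitochondrial matrix, averaged 63.5 CPM at 800 ppb and 36.2 CPM at 0 ppb.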

How the data were processed

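For each library the authors deposited raw read counts by Ensembl gene ID, in whole numbers, which were fitted as they stand. They also deposited a series table of 18963 genes on a log2 scale. Its lowest value was subtracted on the linear scale, and the rest was divided by a step fitted in each library. The step was chosen so that low values came out whole. This gave whole reads for 100% of entries (tolerance 0.05 reads). These recovered reads equal the counts in the hospital's 2 libraries and come from another count set in the provider's 8. The build GRCz11 and the tools STAR, cutadapt, FastQC and edgeR come from the submitters' processing notes, which give no versions; counter, annotation release and strandedness: not given in the sources used here.

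The members and the gene lists were chosen with earlier results of these data known. Named were all members, up to 4 genes per list with the smallest p at 800 ppb, and the 6 most alike genes with a proper symbol. hspa1b, HSPA5 and HSP90AA1 were added after their values were seen. Symbols were matched to 28988 of the 32057 shared genes. The hospital's files held 463 further features (0.339% and 0.342% of their reads), which were not used here.

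The fit used edgeR 4.0.16 under R 4.3.3 (TMM, filterByExpr by dose, quasi-likelihood F-test, two-sided, Benjamini-Hochberg over 20867 genes), with site and dose as terms in all 10 libraries, so that the 2 libraries of 800 ppb share the spread of all groups. All 8 members passed the filter on low counts, each with at least 1 CPM in at least 2 libraries outside 800 ppb. For the edgeR fits, SE is the absolute log2 fold change divided by the square root of its F statistic, an approximate standard error. Sums entered as 1 added row. The provider's batches came from clustering the log ratio of the 2 count sets over 13232 genes, cut at 3 clusters set in advance. Correlations were 0.903 to 0.952 within and 0.748 to 0.818 between batches. They come from the same values that were clustered, so they are no test of the grouping. The replicate numbers were taken to pair 200 with 0 ppb, since deviations of same-numbered libraries from their group means correlated at 0.945, 0.640 and 0.803. At 800 ppb they did not (-0.23 and 0.0368). Same-numbered libraries of 200 and 0 ppb also share a batch, so these correlations cannot tell pairing from batch. Alternatives were median-ratio size factors, no filter, the batch term, the recovered reads, DESeq2 1.42.0, limma 3.58.1 with voom and on the log2 values, a replicate block, the batch of the 800 ppb libraries alone, and each library left out. Poisson intervals cover counting error only.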

Additional observations from a re-analysis of the deposited data

Results flagged for a closer look

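Of 11 groups checked for 1 library far from the others, the HSPA4 gene ENSDARG00000004754 at 0 ppb stood out. Replicate 1, the hospital's library, was lowest at 64.3 CPM, where the other 4 lay between 96.2 and 107 CPM, a gap of 0.740 of the group's range. The hospital's 200 ppb library was also the lowest of its dose, at 76.3 CPM. Chance alone marks about 1 in 20 groups.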

How the results depend on the processing

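For 800 ppb against 0 ppb, the number of genes called was 65 with the batch term, 15 on the recovered reads, 45 with DESeq2, 2 with limma-voom, 24 in batch 4 alone and 0 to 9 with 1 library left out, against 9 in the site-term fit. With the batch term and without replicate 4 or 5 of 0 ppb or replicate 1 or 2 of 800 ppb (chosen after seeing the data) it was 56, 52, 33 and 114. Members called numbered 5 with the batch term, 1 with limma-voom and 1 on the deposited log2 values. They numbered 0 to 3 with 1 library of 0 or 200 ppb left out of the site-term fit. Median-ratio size factors called 2, among 8 genes, and hsp70.3 was no longer called. The 3 members called in the site-term fit had an edgeR adjusted p close to the cut of 0.05. The replicate block with the site term called 6590 genes at 800 ppb, where the numbers pair no libraries, and gave the summed hsp70 genes 1.16 and hsp70.1 -0.39; with the batch term and without replicate 2 of 800 ppb the sum was 2.95. At 200 ppb the replicate block called 2 genes in the 200 and 0 ppb libraries and 6 with the site term in all 10, 1 of them a member; it changed no other call on a member.

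Values near 0 changed sign. HSPA4 ENSDARG00000018989 at 800 ppb was -0.075 with the batch term, -0.076 in batch 4 alone, and with the batch term -0.037, -0.11, -0.047 and -0.10 without replicates 4 and 5 of 0 ppb and 1 and 2 of 800 ppb; it ran from -0.00058 to 0.16 with 1 library left out of the site-term fit. At 200 ppb it was 0.022 with the batch term and with both blocks, and -0.25 to 0.063 with 1 library left out. HSPA8 ENSDARG00000068992 at 200 ppb was -0.0056 with the batch term, -0.0059 with limma-voom, -0.0042 on the log2 values, -0.0057 and -0.0055 with the blocks, and -0.17 to 0.15 with 1 library left out. hsp70l at 200 ppb ran from -0.00022 to 0.30. The cause was not tested. The site-term calls on members change with most single libraries left out. With the batch term, 4 members among 56 genes were called without replicate 4 of 0 ppb. Without replicate 5 of 0 ppb, 4 members among 52 genes were. At a depth of 12.3 megareads hsp70.1 had 6 reads in replicate 4 of 0 ppb.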
